A study of Mus musculus with 2 samples.

Results

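Neural microRNAs (miRNAs) were examined as a lineage contrast in microvesicles (MVs) released by mouse bone marrow mesenchymal stem cells (MSCs). They were chosen by name, as every entry of the miRNA array with the stem miR-7, miR-9, miR-124, miR-128, miR-129, miR-137, miR-153 or miR-219, an optional letter a or b, and any arm or copy suffix. This gave 16 of the 831 entries, from 7 of the 8 stems. No entry matched miR-153, and of the 9 arms that are usually taken as the guide, miR-137-3p and miR-153-3p are not analysed here. The MSCs came from bone marrow of male C57BL/6 mice aged 4 weeks and were used at passage 3. One group of cells was cultured for 48 h with 100 IU/ml erythropoietin (EPO) and gave the EPO-MVs, and the other was cultured for 48 h without EPO and gave the MSC-MVs. Both media contained 10% fetal bovine serum, and the MVs of both groups were pelleted from the medium by ultracentrifugation. The paper names this serum as a limitation and holds that its influence on both kinds of MVs was similar. Signal from the serum was not separated from that of the MSCs. Each group had 1 array, so no difference has a replicate check, no test was run, and EPO and the array itself cannot be told apart as sources of a difference. Below, values "with EPO" are those of the EPO-MV array and values "without it" those of the MSC-MV array, and pairs of values are given in this order. In such bulk RNA, fewer MVs that carry a miRNA and less of it in each MV cannot be told apart either.

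A miRNA guides a silencing complex to messenger RNAs that pair with its seed, bases 2 to 8 from the 5′ end. Each hairpin precursor has a 5p and a 3p arm, and the arm that is usually loaded into the complex is called the guide. In the nervous system, miR-124 is abundant in neurons and represses genes of non-neuronal cells, miR-9 acts in neural progenitors, and miR-128, miR-129, miR-137 and miR-153 act in neurons, where miR-137 is known for synaptic targets. The miR-7 family is found in brain and in endocrine cells such as those of pancreatic islets, and its level in brain is tied to the circular RNA Cdr1as. In the oligodendrocyte lineage, which makes myelin, miR-219 promotes differentiation. For stromal cells such as MSCs, the miRNAs set beside these were miR-143, miR-145, miR-199, miR-214, miR-21 and miR-22. Whether they are particular to stromal cells was not analysed here.

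The mature sequences of 12 of the 16 entries were found by name in RefSeq (GRCm38.p6). Those without a sequence here are miR-124-3p, miR-124-5p, miR-129-1-3p and miR-219a-2-3p. The miR-7 set is shown first, because its members share seeds and differ in intensity and ratio, with the seed in capitals and each sequence written 5′ to 3′.
miR-7a-5p: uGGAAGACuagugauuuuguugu
miR-7b-5p: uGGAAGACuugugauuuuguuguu
miR-7a-1-3p: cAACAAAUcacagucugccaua
miR-7a-2-3p: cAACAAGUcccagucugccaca
miR-7b-3p: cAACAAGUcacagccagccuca

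With positions counted from 1 at the 5′ end, miR-7b-5p differs from miR-7a-5p by A10U and by its length of 24 against 23 nucleotides, so the seed is the same. Among the 3p arms, miR-7a-2-3p and miR-7b-3p share a seed and differ by C10A, U14C, U16A and A20U. The seed of miR-7a-1-3p is another one, because the change A7G to miR-7a-2-3p lies within it, beside A10C and U21C outside it. miR-7a-5p is encoded both in Mir7-1 at chr13:58392841-58392863 on the minus strand, within the gene Hnrnpk, and in Mir7-2 at chr7:78888295-78888317 on the plus strand. The gene of miR-7b-5p is Mir7b, at chr17:56243017-56243040 on the plus strand.

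The arms of miR-9 and miR-137-5p are shown because the guide of miR-9 passed the fold threshold and miR-137-5p was the brightest neural entry. The arms of miR-219 are shown because their hairpins overlap.
miR-9-5p: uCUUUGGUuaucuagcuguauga
miR-9-3p: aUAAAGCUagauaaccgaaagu
miR-137-5p: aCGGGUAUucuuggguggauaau
miR-219a-5p: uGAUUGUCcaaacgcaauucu
miR-219b-5p: aGAUGUCCagccacaauucucg

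miR-9-5p is encoded by 3 genes with the same mature sequence, Mir9-1 at chr3:88215613-88215635, Mir9-2 at chr13:83738821-83738843 and Mir9-3 at chr7:79505279-79505301, all on the plus strand and each overlapping a long non-coding RNA gene. The array cannot tell these copies apart. The gene of miR-137-5p, Mir137, gives it from chr3:118433865-118433887 on the plus strand, with no other RefSeq gene over the hairpin. The hairpins of Mir219a-2 and Mir219b lie on opposite strands of the same place of chromosome 2, share 65 bases and overlap the gene Cercam. There, miR-219a-5p lies at chr2:29845689-29845709 on the minus strand and miR-219b-5p at chr2:29845647-29845668 on the plus strand. A further copy of miR-219a-5p is at chr17:34025052-34025072 on the minus strand, in Mir219a-1. Whether these places are exonic or intronic was not analysed here. No other entry of the array with a sequence here shared a seed with any of the 12, apart from the pairs within miR-7.

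The deposited values were normalized intensities on a linear scale. On each array the values were whole multiples of the lowest value, with deviations under 0.0001 of it. This lowest value, 0.00212 for EPO-MVs and 0.00224 for MSC-MVs, is the array floor and is called 1 step. A step of the MSC-MV array was thus 1.05 times as large as one of the EPO-MV array. Differences in steps between the arrays are therefore not differences in normalized intensity. The median entry had 97 steps with EPO and 87 steps without it. The authors used miRNAs with an intensity of at least 30 for their normalization factor. The sources used here do not say how many scanner units make 1 step, so limits of 30 and of 60 steps are both given. The brightness of an entry also depends on its probe, so intensities are set against the array floor here and do not rank the amounts of different miRNAs. No member was at the floor itself, whereas 3 of the 831 entries were in EPO-MVs and 14 were in MSC-MVs. These counts and all shares below cover only the 831 entries with values. How these entries were selected is not given in the sources used here.

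The neural entries were spread over the dim and middle part of both arrays, apart from a few brighter ones. Their median was 68 steps with EPO and 33 steps without it, and they ranged from 6 to 1384 steps and from 10 to 1158 steps. On both arrays, 10 of the 16 (62.5%) had at least 30 steps, compared with 69.0% of all entries, and 6 (37.5%) had at least 60 steps, compared with 55.7%. Above the median entry were 7 of the 16 with EPO and 4 without it. The same 4 were above it on both arrays, namely miR-137-5p, miR-7a-5p, miR-7a-2-3p and miR-219b-5p.

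**Figure D1:**
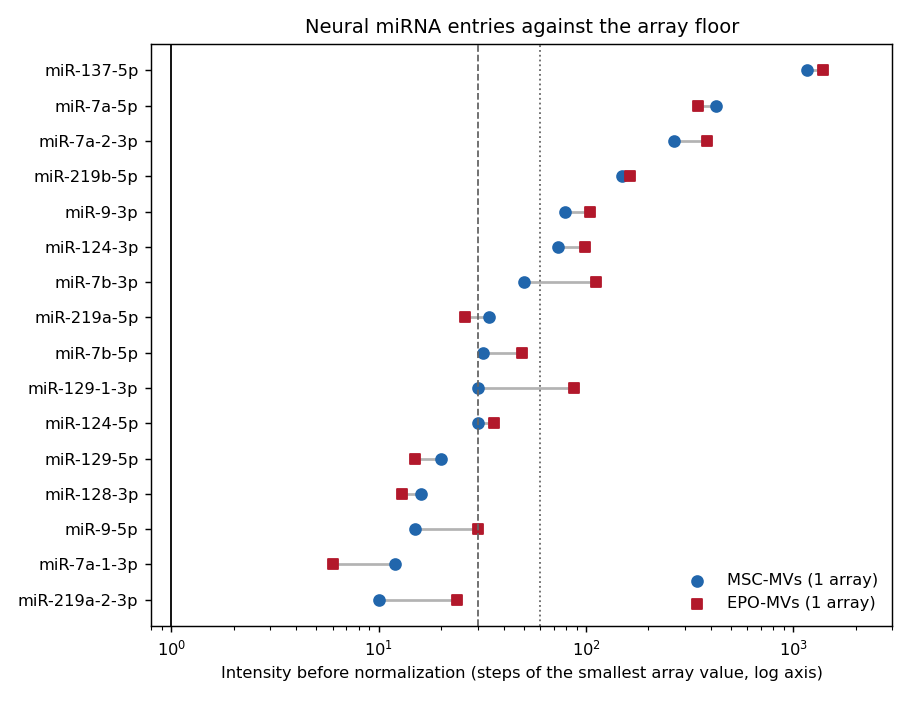
Intensity of the 16 neural entries in steps of the smallest value of each array (x axis, log scale), with 1 array of MSC-MVs (blue circles) and 1 array of EPO-MVs (red squares); the solid line marks the floor of 1 step, the dashed line 30 steps and the dotted line 60 steps. Of the entries, 11 lie between 10 and 112 steps on both arrays, and miR-137-5p stands apart at 1158 and 1384 steps.

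The neuronal guide miR-124-3p had 99 steps with EPO and 73 steps without it. The difference was 26 steps, and miR-124-3p was above 60 steps on both arrays. The other arm, miR-124-5p, had 36 and 30 steps. The ratios of EPO-MVs to MSC-MVs, taken from the normalized intensities, were 1.29 and 1.14, so neither arm reached 1.5-fold.

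For miR-9-5p, the guide known from neural progenitors, the intensity was 30 steps with EPO and 15 steps without it. Its ratio was 1.90, past 1.5-fold, from a difference of 15 steps. With a constant added to both arrays its ratio was 1.33, within 1.5-fold. The 3p arm of miR-9, which is also functional, had 104 and 79 steps and a ratio of 1.25. Both arms were higher in EPO-MVs, and the dimmer one had the higher ratio.

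Among the other neuronal miRNAs, miR-128-3p had 13 steps with EPO and 16 steps without it, a ratio of 0.771. The guide miR-129-5p had 15 and 20 steps, a ratio of 0.712. Both guides were thus under 30 steps and slightly lower in EPO-MVs. In contrast, miR-129-1-3p, the other arm of the hairpin of Mir129-1, had 87 and 30 steps. Its ratio of 2.75 was the highest of the 16 entries, from a difference of 57 steps.

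The entry miR-137-5p had 1384 steps with EPO and 1158 steps without it. It was the brightest neural entry on both arrays, and it is not the usual guide of its hairpin. The ratio was 1.13, and miR-137-5p was above 1 under each of the 6 scalings of the values that were tried.

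In the miR-7 family, the guide miR-7a-5p had 348 steps with EPO and 423 steps without it, a ratio of 0.781. Its close relative miR-7b-5p, which shares its seed, had 49 and 32 steps and a ratio of 1.45, just under the threshold. The guides that target through one seed therefore lay on opposite sides of 1. Of the 3p arms, miR-7a-2-3p had 383 and 265 steps (ratio 1.37), and miR-7b-3p had 112 and 50 steps (ratio 2.13). miR-7a-1-3p, the dimmest member in EPO-MVs, had 6 and 12 steps. Its ratio of 0.475 was the lowest of the 16 entries, and it rests on 6 steps.

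The oligodendrocyte guide miR-219a-5p had 26 steps with EPO and 34 steps without it, a ratio of 0.726. From the opposite strand of its Mir219a-2 copy, miR-219b-5p had 162 and 149 steps and a ratio of 1.03, which became 0.997 after re-centring on the median of all entries. miR-219a-2-3p, the other arm of Mir219a-2, had 24 and 10 steps. At 10 steps it was the dimmest member in MSC-MVs, and its ratio was 2.28.

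With 1.5-fold in either direction as the threshold (a ratio of 1.5 or more, or of 0.667 or less), 5 of the 16 neural entries (31.3%) differed between the arrays. Over all entries 211 of 831 did so, which is 25.4%. Those higher in EPO-MVs were miR-129-1-3p, miR-219a-2-3p, miR-7b-3p and miR-9-5p, 4 of 16, where the share of all entries was 17.8%. Lower in EPO-MVs was miR-7a-1-3p, 1 of 16, where the share of all entries was 7.58%. With the deposited values at 1.5-fold, the shares of the neural entries are thus near those of all entries. This does not hold at the other folds. At 2-fold the share was 25% of the neural and 10.6% of all entries, and at 1.2-fold it was 81.3% and 55.4%. At 1.5-fold under the other scalings, the neural share stood beside that of all entries at 31.3% and 24.8% after re-centring on the median and at 37.5% and 25.9% after scaling to the 75th percentile. It was 50.0% beside 22.9% after quantile normalization, 50.0% beside 22.6% after lowess, and 12.5% beside 6.5% with a constant added to both arrays. By any amount, 11 of the 16 (68.8%) were above 1, compared with 56.1% of all entries. The median log2 ratio of the neural entries was 0.25, and that of all entries was 0.05.

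All 5 of these entries were below 60 steps on at least 1 array. Of the 10 such neural entries 5 differed by 1.5-fold, while among all entries below 60 steps on at least 1 array the share was 46.5% (171 of 368). Of the 6 neural entries with at least 60 steps on both arrays, miR-137-5p, miR-7a-5p, miR-7a-2-3p, miR-219b-5p, miR-9-3p and miR-124-3p, 0 differed by 1.5-fold, and the share among all such entries was 8.64% (40 of 463). The ratios of these 6 ranged from 0.781 to 1.37. An entry can also fall below 60 steps through its difference, as miR-129-1-3p (87 and 30 steps) and miR-7b-3p (112 and 50 steps) did. In contrast, miR-9-5p, miR-219a-2-3p and miR-7a-1-3p were below 60 steps on both arrays. The limit is thus not independent of the ratios, and the part of low intensity in them was not tested.

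**Figure D2:**
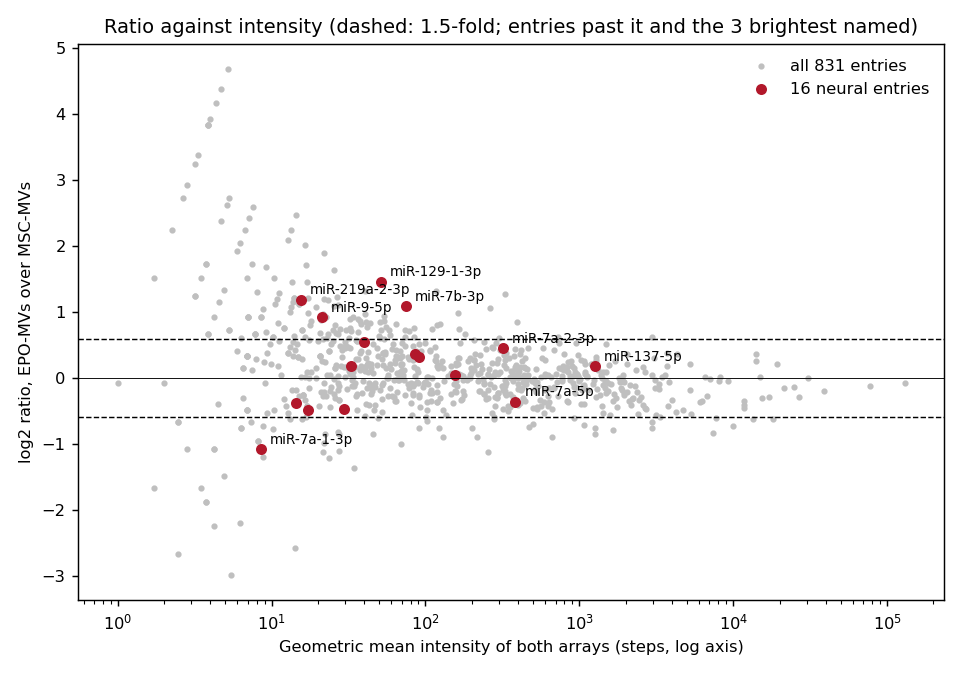
The log2 ratio of EPO-MVs to MSC-MVs (y axis) against the geometric mean intensity of both arrays in steps (x axis, log scale) for all 831 entries (grey) and the 16 neural entries (red); dashed lines mark 1.5-fold. The spread of all entries widens at low intensity, and the 5 named neural entries outside the dashed lines have fewer than 60 steps on at least 1 array.

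The usual guide arms were also set beside the other arms. The 7 guides had medians of 30 steps with EPO and 32 steps without it, and 3 of them were above 1 and 4 below, with a median log2 ratio of -0.36. The 9 other arms had medians of 104 and 50 steps, and 8 of them were above 1 and 1 below, with a median log2 ratio of 0.32. Of these 8, miR-124-5p was below 1 after quantile normalization (0.985) and after lowess (0.960), and miR-219b-5p after re-centring. Past 1.5-fold were 1 guide, miR-9-5p, and 4 other arms with the deposited values, where 25.4% of all entries were, and the same numbers passed after re-centring (24.8% of all entries). They were 2 guides and 4 other arms after scaling to the 75th percentile (25.9%), 4 and 4 both after quantile normalization (22.9%) and after lowess (22.6%), and 0 and 2 with the added constant (6.5%). The guides and the other arms had 1 array per group each, and the difference between them was not tested.

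Arms of one precursor did not always lie on the same side of 1. Of 7 pairs of a guide and another arm, 4 were on the same side and 3 on opposite sides. On opposite sides were miR-129-5p (0.712) and miR-129-1-3p (2.75), miR-219a-5p (0.726) and miR-219a-2-3p (2.28), and miR-7a-5p (0.781) and miR-7a-2-3p (1.37). Each of these guides can also come from another gene copy, Mir129-2, Mir219a-1 and Mir7-1, so a pair is not a measure of 1 hairpin alone. After quantile normalization and after lowess, the pair of miR-124 was on opposite sides as well.

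Another 12 entries of brain-associated stems outside the rule (miR-132, miR-134, miR-138, miR-212, miR-218, miR-338 and miR-488) served for comparison, and miR-384 had no entry. Their medians were 93 steps with EPO and 92.5 steps without it, and 1 was higher and 2 were lower by 1.5-fold, together 25%, where 25.4% of all entries were past it. The one that was higher was miR-218-2-3p, with 23 and 10 steps and a ratio of 2.18. Those lower were miR-338-3p, an oligodendrocyte miRNA like miR-219, with 403 and 623 steps and a ratio of 0.614, and miR-132-3p, a miRNA induced by neuronal activity, with 2 and 4 steps and a ratio of 0.475. Their median log2 ratio was -0.07.

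The 12 entries of the muscle miRNAs, miR-1, miR-133, miR-206, miR-208 and miR-499, are those of another lineage, skeletal and heart muscle. Their medians were 32.5 steps with EPO and 28 steps without it, and 1 was higher and 1 lower by 1.5-fold, together 16.7%, where 25.4% of all entries were past it. On both arrays, 4 of the 12 (33.3%) had at least 60 steps.

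The stromal list, chosen for the labelled cell type, had 13 entries, those of miR-143, miR-145, miR-199, miR-214, miR-21 and miR-22. Each entry was well above the array floor. Their medians were 3313 steps with EPO and 4228 steps without it, and the lowest value was 282 steps. Since brightness depends on the probe, these values describe signal over the floor and do not settle the cell type. The median log2 ratio of the stromal entries was -0.29, with 1 entry of 13 (7.69%) past 1.5-fold, miR-143-3p, which was lower in EPO-MVs (15024 and 22016 steps, ratio 0.648). All 13 had at least 60 steps on both arrays, and of all entries with that many steps 8.64% passed 1.5-fold (40 of 463).

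**Figure D3:**
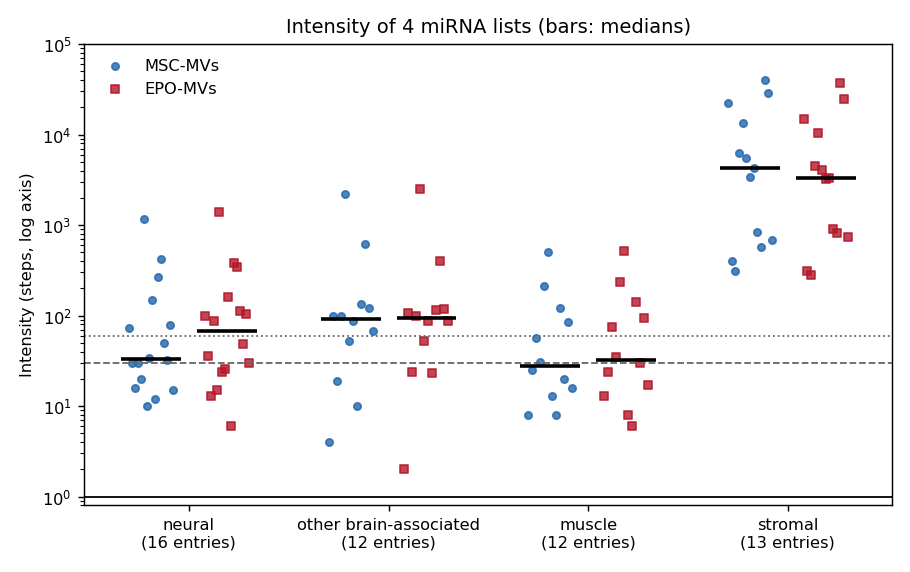
Intensity in steps (y axis, log scale) of the entries of 4 miRNA lists, each with 1 array of MSC-MVs (blue circles) and 1 array of EPO-MVs (red squares); black bars are medians, and lines mark 1, 30 and 60 steps. The medians of the neural entries are 33 and 68 steps and those of the stromal entries are 4228 and 3313 steps.

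The direction of the 5 entries past 1.5-fold was the same after quantile normalization and after lowess. The other scalings could not have reversed it. They shift all ratios slightly and equally, or add the same constant to both arrays. The number of entries past 1.5-fold was not the same. After quantile normalization and after lowess, 8 entries passed it, 4 higher and 4 lower, against 4 higher and 1 lower with the deposited values. Over all 831 entries the split moved likewise. It went from 148 higher and 63 lower to 95 and 95 after quantile normalization and to 92 and 96 after lowess. The 3 that joined were the dim guides miR-128-3p, miR-129-5p and miR-219a-5p, with ratios from 0.531 to 0.605. When a constant of 0.0573, the 25th percentile of the values, was added to both arrays as a pseudocount, 2 of the 5 remained, miR-129-1-3p (1.95) and miR-7b-3p (1.74).

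**Figure D4:**
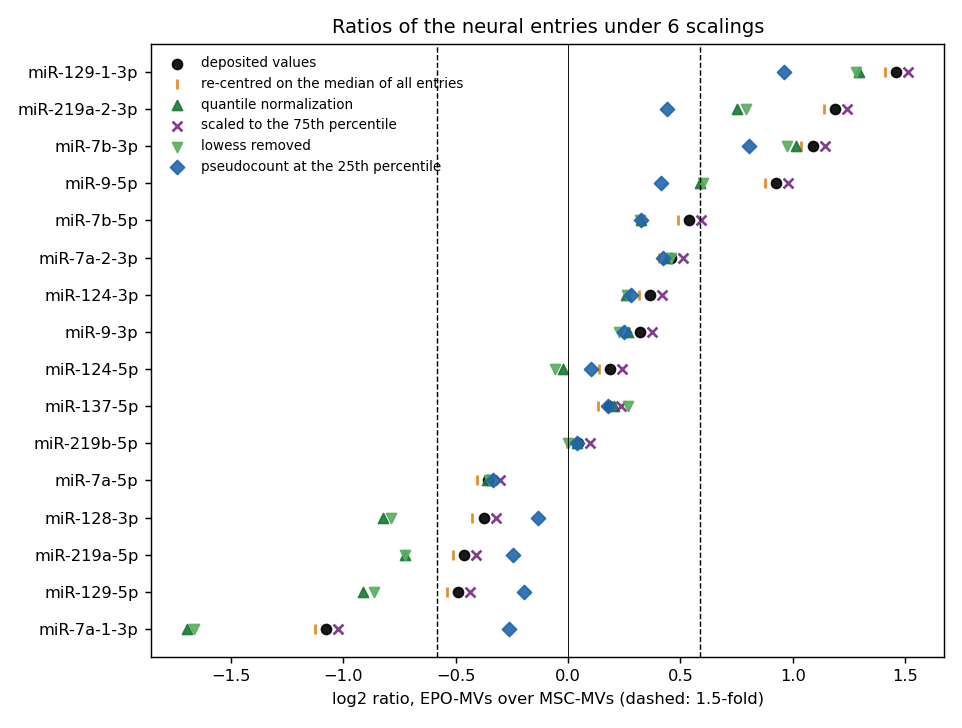
The log2 ratio of EPO-MVs to MSC-MVs (x axis) of each neural entry (y axis) with the deposited values and under 5 other scalings (symbols); dashed lines mark 1.5-fold. miR-129-1-3p and miR-7b-3p lie to the right of the upper line under all 6, and miR-128-3p, miR-129-5p and miR-219a-5p pass the lower line with quantile normalization and lowess.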

How the data were processed

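RNA of EPO-MVs (1 sample) and MSC-MVs (1 sample) was labelled and hybridized to the miRCURY LNA Array (version 18.0), whose probes contain locked nucleic acids. The authors read the scans with GenePix Pro 6.0, averaged replicate spots, and deposited intensities after median normalization, with a factor from miRNAs of intensity 30 or more in all samples. The channel, the background correction and the selection of the 831 entries are not given in the sources used here. The number of arrays limits the precision.

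From these values, steps (on the EPO-MV array 471 make an intensity of 1, on the MSC-MV array 447) and the ratio of EPO-MVs to MSC-MVs were computed without pseudocount or filter. All members were named, and other entries came from fixed lists. The members, lists and limits were chosen with earlier results of these data known. Alternatives were folds of 2 and 1.2, limits in steps, re-centring, quantile normalization, scaling to the 75th percentile, lowess (span 0.4, 3 iterations) and a pseudocount. The counting was tested on simulated data without noise, in which 200 entries were changed by 2-fold. This checks the counting only, and not calls of dim entries. A check of GC content is void and not reported, because only 12 of 16 members (75.0%) had a sequence. Python 3.11.15, pandas 2.3.3, numpy 2.4.6, statsmodels 0.14.6 and matplotlib 3.10.9 were used.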

Additional observations from a re-analysis of the deposited data

How the results depend on the processing

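The number of neural entries past the threshold, 5 with the deposited values, was 4 at 2-fold and 13 at 1.2-fold. Where fewer entries were counted, it was 2 of 10 with at least 30 steps on both arrays (20.0%, and 10.8% of all such entries), 3 of 12 with at least 30 steps on either array (25% and 16.2%) and 0 of 6 with at least 60 steps on both (8.64% of all such entries). It was 8 after quantile normalization, 8 after lowess and 2 with the pseudocount, which shrinks ratios of dim entries by construction, and 5 and 6 after re-centring and scaling to the 75th percentile. Over all entries, 211 became 88 at 2-fold, 460 at 1.2-fold, 62, 103 and 40 under the same limits in steps, and 54 with the pseudocount, and it stayed between 188 and 215 under the other scalings. The split over all entries was 148 higher and 63 lower with the deposited values, 95 and 95 after quantile normalization and 92 and 96 after lowess. The neural entries at or above the limit on both arrays, 10 at 30 steps, were 15 at 10 steps, 6 at 60 steps and 4 at 100 steps. The median log2 ratio stayed between 0.20 and 0.34 under the alternatives. With the pseudocount, miR-219a-2-3p (1.36), miR-9-5p (1.33) and miR-7a-1-3p (0.832) were within 1.5-fold, and with scaling to the 75th percentile miR-7b-5p passed it (1.51). Except where stated, the cause was not tested. No paired analysis was possible because each group had 1 array. The deposited values hold no measured background, so entries near the array floor cannot be called present or absent.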
